A study of Mus musculus with 15 samples.

Results

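Sorted tumor cells carrying either of a pair of short hairpin RNAs (shRNAs) against Cd276, the gene of the checkpoint ligand B7-H3, were compared with each other. These were the 3 libraries labelled sh-B7-H3 (1) and the 3 labelled sh-B7-H3 (2), 6 of the 15 libraries of the series, chosen by their labels alone and compared over all genes. The cells were 105K cells, a Tsc2-deficient line taken from a kidney tumor in a Tsc2+/- mouse. Each arm was a puromycin-selected pool transduced with its shRNA vector, not a single clone. Both pools had been grown as subcutaneous flank tumors in wild-type C57BL/6J male mice that were 6 weeks old at injection. The tumors were then dissociated, and non-tumor cells were removed by magnetic depletion. The 3 sorted libraries of cells with a non-targeting shRNA (sh-NC), grown in the same kind of host, are given beside the results as values and entered a fit only as a named alternative. Tumor-bearing mice differ in their host cells, and the labels do not say whether same-numbered libraries share a mouse, a day or a batch.

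TSC2 is part of the brake on the growth kinase complex mTORC1, so these cells model a tumor with that brake lost. B7-H3 is a surface protein of the B7 family, whose members meet receptors on T cells and natural killer cells. An shRNA is cut to a short guide that leads Argonaute to a matching mRNA. Hairpins against different stretches of one mRNA therefore share the intended target and differ in guide sequence, and a pool that has passed through selection and growth in a mouse can also carry its own history.

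Expression was deposited as FPKM (fragments mapped to a gene, normalized to its length and to the depth of the library). It was divided by a scaling factor per library and is given here as scaled FPKM, and differences are in log2(scaled FPKM + 1), (1) minus (2), so that a positive value is higher in (1). This scale understates the change of genes near 0. A gene was called where its Benjamini-Hochberg adjusted p from limma was below 0.05. Sequencing depth is known only relative to 1 sorted sh-NC library, and the 6 libraries lay between 0.574 and 0.931 of it. In the (1) libraries and in replicates 2 and 3 of (2), the leukocyte gene PTPRC was at most 0.158 scaled FPKM. Replicate 1 of (2) stood apart, with PTPRC at 12.04.

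The plot of marker sums shows how that library differed. Its summed leukocyte markers were 353 against 6.74 to 11.3 scaled FPKM in the other 5 libraries, with all 10 of the list's members above the other 5. Macrophage markers summed to 798 against 62.9 to 98.4, and T cell markers to 24.8 against 1.33 to 2.08. Cytotoxic lymphocyte markers, among them the interferon gamma gene IFNG, summed to 19.9 against 0.0682 to 0.336, and IFNG and NCR1 were listed at 0 in each of the other 5. Endothelial markers summed to 34.3 against 1.61 to 3.03 and Y-linked genes, which the male host supplies, to 4.88 against 0.404 to 0.887. The fibroblast sum was 206 there, 155 and 155 in the other (2) libraries, and 81.4 to 125 in (1). Adipocyte and skeletal muscle markers varied over 6.15 to 76.9 and 41.96 to 104 across the 6 libraries. In such mixed samples, fewer cells of a type and less RNA per cell cannot be told apart. Each difference is therefore given first with all 6 libraries and then without replicate 1 of (2).

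**Figure D1:**
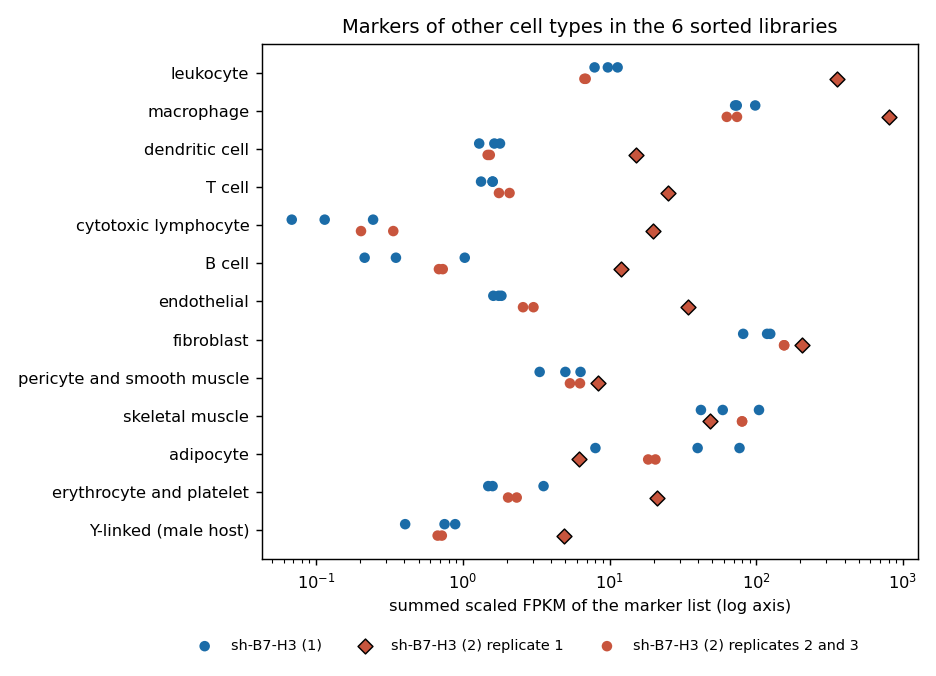
Summed scaled FPKM (log axis) of marker lists of other cell types in the 6 sorted libraries, 1 point per library; the diamond is replicate 1 of sh-B7-H3 (2). That library lies above the other 5 for the leukocyte, macrophage, dendritic cell, T cell, cytotoxic lymphocyte, B cell, endothelial, erythrocyte and Y-linked lists, and lowest for the adipocyte list.

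Cd276 mRNA, the common target, was lower in (1) than in (2). CD276 was at 7.29, 13.96 and 11.5 in the (1) libraries and at 23.3, 25.4 and 25.7 in the (2) libraries, and these groups did not overlap. The means were 10.9 ± 3.37 and 24.8 ± 1.299 (SD, n = 3 each). The difference was -1.16 (SE 0.20, 95% interval -1.62 to -0.69, adjusted p = 0.0277). It was -1.199 (95% interval -1.72 to -0.67, adjusted p = 0.0194) without replicate 1 of (2). It missed the threshold without replicate 3 of (1) (adjusted p = 0.101), replicate 2 of (2) (0.0993) or replicate 3 of (2) (0.114), in fits that hold fewer libraries. In sh-NC the gene was at 33.99, 20.004 and 17.3, a range that contains the 3 (2) libraries and none of the (1) libraries. By its mRNA, knockdown relative to sh-NC was thus not seen in the libraries labelled sh-B7-H3 (2), and (2) is used below as a label. Protein was not measured here, and Tsc2 itself was at 1.66, 2.27 and 1.91 in the (1) libraries and at 2.22, 2.67 and 2.87 in the (2) libraries.

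Across the transcriptome, 382 of 11239 tested genes (3.40%) were called between the pools, 198 higher in (1) (1.76%) and 184 higher in (2) (1.64%). An absolute log2 difference above 1 was reached by 119 of them, 59 higher in (1) and 60 higher in (2). Without replicate 1 of (2) the count rose to 1029 of 11435 (9.0%), 421 higher in (1) (3.68%) and 608 higher in (2) (5.32%). The same direction and call were kept there by 373 of the 382 genes. Same-numbered libraries of (1) and (2) deviated together from their group means, and with the replicate number as a block 1864 genes were called (16.6%), 1015 higher in (1) (9.03%) and 849 higher in (2) (7.55%). All 382 genes were among these. Their direction could not change, because a block leaves the differences of balanced groups as they were. The block without replicate 1 of (2) gave 2094 (18.3%), 1044 higher in (1) (9.13%) and 1050 higher in (2) (9.18%). Replicate 1 of (1) then has a block to itself and adds nothing, so that fit compares only replicates 2 and 3 of each pool. The count depended on the libraries at hand. It was 215 without replicate 1 of (1), 84 without replicate 2, 46 without replicate 3, 78 without replicate 2 of (2) and 45 without replicate 3 of (2). The plot of all tested genes shows the called ones on both sides and at all levels of expression.

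**Figure D2:**
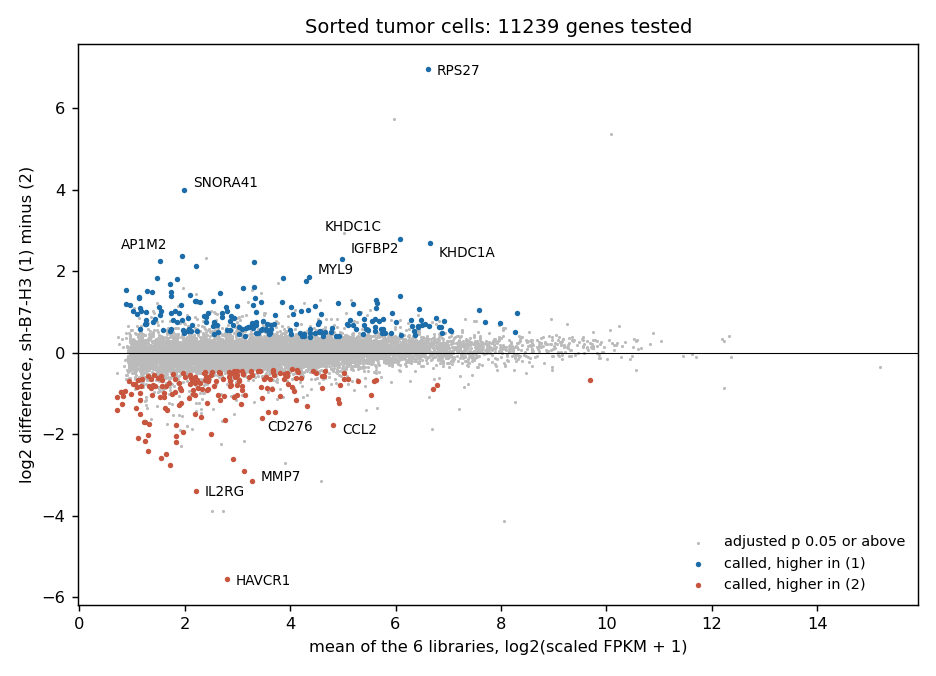
Log2 difference, sh-B7-H3 (1) minus (2), against mean expression over the 6 libraries for the 11239 genes tested, 1 point per gene. Coloured points are the 198 genes called higher in (1) and the 184 called higher in (2); HAVCR1 at the bottom and RPS27 at the top mark the ends of the called range.

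Of the 12 genes with the largest differences towards (2), several are known from the renal tubule or from hormone transport and activation. HAVCR1, the kidney injury molecule of proximal tubule cells, was at 0.0217, 0 and 0.0295 in the (1) libraries, at 17.2, 78.8 and 75.1 in the (2) libraries and at 0.182, 0.527 and 0.947 in sh-NC. It was near 0 in (1) and in sh-NC, and high in all 3 (2) libraries, lowest in the one with leukocyte markers. The difference was -5.56 (SE 0.51, adjusted p = 0.00309) and -6.26 (adjusted p = 1.53e-07) without replicate 1 of (2). MME, the brush border peptidase neprilysin, was at 1.48, 2.13 and 3.12 in the (1) libraries, at 6.67, 42.8 and 39.2 in the (2) libraries and at 9.79, 13.5 and 12.6 in sh-NC, and here sh-NC lay between the pools. Its difference was -2.91 (SE 0.61, adjusted p = 0.0493) and -3.72 (adjusted p = 7.70e-05) without replicate 1 of (2). CDH6, a cadherin of the developing and proximal tubule, was at 0.177, 0.305 and 0.351 in the (1) libraries, at 2.18, 13.4 and 12.8 in the (2) libraries and at 2.08, 1.69 and 1.69 in sh-NC, a difference of -2.75 (SE 0.53, adjusted p = 0.036997) and -3.47 (adjusted p = 9.25e-06) without replicate 1 of (2). DAB2, an endocytic adaptor that works with megalin in the proximal tubule, was at 0.514, 0.73995 and 0.791 in the (1) libraries and at 6.14, 7.44 and 6.45 in the (2) libraries. Its spread within each pool was small against the difference of -2.19 (SE 0.12, adjusted p = 6.04e-04) and -2.24 (adjusted p = 8.96e-05) without replicate 1 of (2). SERPINA7, the thyroxine-binding globulin, followed with -2.47 (SE 0.42, adjusted p = 0.0269) and -3.04 (adjusted p = 2.41e-05) without replicate 1 of (2). HSD11B1, which regenerates active glucocorticoid, was at 2.82, 1.29 and 2.2998 in the (1) libraries and at 25.2, 15.2 and 14.3 in the (2) libraries, a difference of -2.61 (SE 0.25, adjusted p = 0.00375) and -2.36 (adjusted p = 7.29e-04) without replicate 1 of (2). Of these genes, HAVCR1, MME, CDH6 and SERPINA7 were 17.2, 6.67, 2.18 and 2.4003 in replicate 1 of (2), between (1) and the other (2) libraries, and DAB2 was only just below them.

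A list of 29 renal lineage and tubule genes did not move as 1 group. In it, 1 of 18 tested members were called higher in (1) and 3 higher in (2), with a median difference of 0.018, beside 1.48e-04 over all tested genes. The counts were 1 and 5 of 18 without replicate 1 of (2) (median -0.14) and 3 and 4 with the block. Of all genes, 1.76% and 1.64% were called in these directions with all 6 libraries. The shares were 3.68% and 5.32% without replicate 1 of (2), and 9.03% and 7.55% with the block. Beside HAVCR1 and CDH6, VCAM1, an adhesion molecule of injured tubule and of endothelium, was higher in (2), at 21.8, 19.9 and 16.6 in the (1) libraries and at 54.4, 39.2 and 39.8 in the (2) libraries (difference -1.15 (SE 0.16, adjusted p = 0.0133) and -0.99 (adjusted p = 0.00456) without replicate 1 of (2)). The water channel AQP3 of the collecting duct went the other way, at 4.84, 3.68 and 3.91 in the (1) libraries and at 2.64, 1.499 and 1.71 in the (2) libraries (difference 0.81 (SE 0.16, adjusted p = 0.0416) and 0.98 (adjusted p = 0.00497) without replicate 1 of (2)). Among members that did not pass were UMOD (-1.08, 95% interval -1.64 to -0.51, adjusted p = 0.0581) and ATP1B1 (0.55, 95% interval 0.14 to 0.96, adjusted p = 0.131).

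The same 12 genes include IL2RG, NCF4 and LILRB4A, which are better known from immune cells. Of 5 leukocyte and 6 macrophage markers tested, 0 were called in limma with all 6 libraries, with 0 and 1 at an unadjusted p below 0.05. Markers high in replicate 1 alone widen the spread within (2), so this fit could hardly call them. No conclusion is drawn from these counts. Without replicate 1 of (2), 1 leukocyte marker and 3 macrophage markers were called higher in (1) and 1 macrophage marker higher in (2). IL2RG, the common gamma chain of interleukin receptors, was at 0.571, 0.252 and 0.508 in the (1) libraries, at 8.34, 18.8 and 17.3 in the (2) libraries and at 0.484, 0.344 and 0.395 in sh-NC. Replicates 2 and 3 of (2) had the highest values. Their leukocyte marker sums were 6.74 and 6.87, beside 7.90 to 11.3 in the (1) libraries. Macrophage sums were 73.9 and 62.9, beside 71.8 to 98.4. Neutrophil markers went the other way, with sums of 2.24 and 1.76 beside 0.282 to 0.484. T cell markers did so too, at 2.08 and 1.76 beside 1.33 to 1.598. IL2RG differed by -3.38 (SE 0.27, adjusted p = 0.001795) and -3.72 (adjusted p = 1.11e-05) without replicate 1 of (2). NCF4, a cytosolic subunit of the phagocyte NADPH oxidase, was at 0.05796, 0.0905 and 0.216 in the (1) libraries. In the (2) libraries it was at 3.43, 4.74 and 4.05, lowest in replicate 1. It differed by -2.17 (SE 0.13, adjusted p = 8.31e-04) and -2.27 (adjusted p = 8.43e-05) without replicate 1 of (2). LILRB4A, an inhibitory receptor of myeloid cells, was at 0.0842, 0.329 and 0.171 in the (1) libraries and at 8.71, 4.99 and 5.29 in the (2) libraries, and its neighbour LILR4B, looked at for its position, was at 0.1095, 0.399 and 0.211 in the (1) libraries and at 4.82, 3.74 and 3.44 in the (2) libraries. Both were highest in replicate 1 of (2), and the other (2) libraries were also above every (1) library. The part of host cells in the values of these immune genes was not tested. The differences were -2.59 (SE 0.20, adjusted p = 0.00163) and -2.37 (adjusted p = 7.70e-05) without replicate 1 of (2) for LILRB4A and -2.01 (SE 0.15, adjusted p = 0.00163) and -1.89 (adjusted p = 2.86e-04) without replicate 1 of (2) for LILR4B. These paired receptors are close in sequence, so their split is uncertain. The matrix protease MMP7, a secreted product of stressed epithelium, was at 2.23, 4.81 and 0.854 in the (1) libraries, at 25.8, 27.6 and 30.4 in the (2) libraries and at 0.234, 1.84 and 0.731 in sh-NC, and differed by -3.14 (SE 0.36, adjusted p = 0.00709) and -3.198 (adjusted p = 0.00365) without replicate 1 of (2).

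The CDKN2 locus differed in both directions. CDKN2A encodes p16 and p19Arf and CDKN2B encodes p15, all brakes on the cell cycle, and the genes lie side by side on chromosome 4. CDKN2A was at 0.4496, 1.01 and 0.838 in the (1) libraries and at 2.53, 7.98 and 10.8 in the (2) libraries, and CDKN2B was at 0.0609, 0.143 and 0.0207 in the (1) libraries and at 1.94, 6.72 and 7.03 in the (2) libraries. Both were low in (1) and in sh-NC (CDKN2A at 0.821, 1.297 and 1.404 and CDKN2B at 0.0212, 0.176 and 0.415), and intermediate in replicate 1 of (2). The differences were -2.04 (SE 0.40, adjusted p = 0.0382) and -2.56 (adjusted p = 2.72e-04) without replicate 1 of (2) for CDKN2A and -2.400 (SE 0.36, adjusted p = 0.0183) and -2.87 (adjusted p = 1.79e-05) without replicate 1 of (2) for CDKN2B. A gene next to this pair, MTAP of methionine salvage, was opposite, at 277, 282 and 264 in the (1) libraries, at 130.1, 136 and 130.2 in the (2) libraries and at 251, 319 and 342 in sh-NC. The (2) libraries were the low ones, and the difference was 1.05 (SE 0.090, adjusted p = 0.00235) and 1.04 (adjusted p = 0.00157) without replicate 1 of (2). MTAP was looked at because of its position, after the values were seen. In the list of 33 cell cycle and DNA replication genes CDKN2A was the one called. There, 0 of 33 tested members were called higher in (1) and 1 higher in (2), with a median difference of -0.10, beside 1.76% and 1.64% of all genes. The proliferation genes MKI67 and RRM2 did not pass, with MKI67 (-0.50, 95% interval -0.89 to -0.10, adjusted p = 0.154) and RRM2 (-0.45, 95% interval -0.72 to -0.17, adjusted p = 0.0847), the latter with adjusted p = 0.02003 in the block.

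Among genes higher in (1), a cluster on chromosome 1 stood out. KHDC1A, KHDC1B and KHDC1C, KH-domain genes at chr1:21349641-21352200, chr1:21383556-21386373 and chr1:21368331-21370845 (GENCODE on GRCm38, plus strand), were all called. KHDC1A was at 273, 242 and 253 in the (1) libraries, at 64.3, 29.96 and 29.4 in the (2) libraries and at 10.4, 23.3 and 16.8 in sh-NC, and KHDC1C was at 188, 162 and 186 in the (1) libraries, at 39.2, 19.2 and 19.9 in the (2) libraries and at 8.34, 14.6 and 11.5 in sh-NC. Every (1) library was above every (2) library, which the rule that named these genes required, and the (2) libraries were above sh-NC. The differences were 2.701 (SE 0.28, adjusted p = 0.00503) and 3.07 (adjusted p = 1.11e-05) without replicate 1 of (2) for KHDC1A and 2.803 (SE 0.25, adjusted p = 0.00285) and 3.13 (adjusted p = 1.16e-05) without replicate 1 of (2) for KHDC1C. KHDC1B was lower, at 3.75, 5.36 and 3.84 in the (1) libraries and at 0.735, 0.467 and 0.2896 in the (2) libraries, and differed by 1.83 (SE 0.16, adjusted p = 0.00285) and 1.94 (adjusted p = 5.65e-04) without replicate 1 of (2). The coding sequences of KHDC1A and KHDC1C, 501 bases each in the GENCODE annotation of GRCm38, differ at 1 base. Within them 75-base reads can rarely tell the genes apart. The untranslated parts were not compared, and the separate values are uncertain. The base that differs is in capitals in these stretches of coding bases 401 to 430, counted from the start codon and shown because they hold the only coding difference.
KHDC1A: aagttcctcacttctTgaggtttcctttga
KHDC1C: aagttcctcacttctCgaggtttcctttga
The sum of the 3 genes does not depend on that split. It was 465.2, 409.2 and 443 in the (1) libraries, 104.3, 49.6 and 49.6 in the (2) libraries and 18.98, 38.3 and 28.5 in sh-NC.

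The largest fitted difference, in RPS27, was one between near-identical copies. RPS27, a ribosomal protein gene of 4 exons at chr3:90212671-90213651 (GRCm38, minus strand), was at 837, 1304 and 1189.7 in the (1) libraries and at 2.66, 52.3 and 2.51 in the (2) libraries. RPS27RT, a single-exon copy at chr9:114982366-114982739 (minus strand), was at 841, 0.586 and 194 in the (1) libraries and at 1402, 964 and 1029.7 in the (2) libraries. Nearly all of the summed value went to RPS27RT in (2) and most of it to RPS27 in replicates 2 and 3 of (1) and in sh-NC (804, 1514 and 1509.6 for RPS27 and 0.472, 0.994 and 330.1 for RPS27RT), while replicate 1 of (1) was evenly split. Bases outside the coding sequences of these copies were not compared. The 255 coding bases of RPS27 and RPS27RT are the same at every position, as the first 30 show, with nothing in capitals because no base differs.
RPS27: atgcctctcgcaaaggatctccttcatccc
RPS27RT: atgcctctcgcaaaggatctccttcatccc
RPS27 alone differed by 6.95 (SE 0.95, adjusted p = 0.0133) and 6.32 (adjusted p = 0.00791) without replicate 1 of (2). Summed, the copies were at 1678, 1305 and 1383 in (1) and 1405, 1016 and 1032 in (2), which overlap. The summed difference was 0.35 (SE 0.17, adjusted p = 0.286), under an alternative chosen after the data were seen.

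SNORA41 and PET117 also passed the rule with libraries at or near 0, and no fold is given for them. SNORA41, a small nucleolar RNA at chr1:63179023-63179135 (RefSeq, GRCm38) inside its host gene EEF1B2, was at 18.4, 14.3 and 12.5 in the (1) libraries and was listed at 0 in the 3 (2) and the 3 sh-NC libraries. Such a short RNA is not captured well by poly(A) selection. EEF1B2 itself was at 189.9, 158 and 162 in the (1) libraries and at 175, 133 and 150.1 in the (2) libraries, which overlap. PET117, an assembly factor of cytochrome c oxidase, was at 5.19, 5.19 and 5.59 in the (1) libraries, at 7.20e-20, 1.35 and 8.90e-16 in the (2) libraries and at 9.31, 8.77 and 1.897 in sh-NC.

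The other 6 of the 12 genes with the largest differences towards (1) have varied roles. IGFBP2, a binding protein of insulin-like growth factors, was at 50.1, 75.2 and 88.9 in the (1) libraries, at 12.99, 13.6 and 13.1 in the (2) libraries and at 54.3, 99.6 and 64.2 in sh-NC. The (2) libraries were tightly grouped and below both other arms, and the difference was 2.31 (SE 0.19, adjusted p = 0.00211) and 2.299 (adjusted p = 0.00117) without replicate 1 of (2). Its neighbour IGFBP5 was opposite, at 1.28, 1.999 and 2.22 in the (1) libraries and at 3.47, 5.01 and 4.34 in the (2) libraries (-0.90 (SE 0.17, adjusted p = 0.0335) and -1.02 (adjusted p = 0.0109) without replicate 1 of (2)). AP1M2, an adaptor subunit that sorts proteins to the basolateral membrane of epithelia, was at 9.74, 6.66 and 7.37 in the (1) libraries, at 0.476, 0.607 and 1.09 in the (2) libraries and at 0.231, 0.219 and 0.772 in sh-NC, a difference of 2.37 (SE 0.18, adjusted p = 0.00163) and 2.27 (adjusted p = 4.94e-04) without replicate 1 of (2). MYL9, a regulatory light chain of myosin, was at 24.4, 48.9 and 45.5 in the (1) libraries, at 9.81, 9.51 and 9.97 in the (2) libraries and at 58.7, 77.9 and 63.7 in sh-NC. The (2) libraries were the lowest of the 3 arms, with a difference of 1.86 (SE 0.24, adjusted p = 0.00984) and 1.86 (adjusted p = 0.00697) without replicate 1 of (2). COL8A1, a network-forming collagen, was at 12.4, 25.6 and 26.7 in the (1) libraries and at 5.48, 2.904 and 2.79 in the (2) libraries, and differed by 2.23 (SE 0.31, adjusted p = 0.0152) and 2.48 (adjusted p = 0.00293) without replicate 1 of (2). PPEF1, a calcium-binding phosphatase, and LIPK, a lipase, differed by 2.13 (SE 0.30, adjusted p = 0.0161) and 2.15 (adjusted p = 0.0105) without replicate 1 of (2) and by 1.83 (SE 0.23, adjusted p = 0.00942) and 2.01 (adjusted p = 0.00222) without replicate 1 of (2). In PPEF1 the (1) libraries spread from 5.78 to 15.9.

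**Figure D3:**
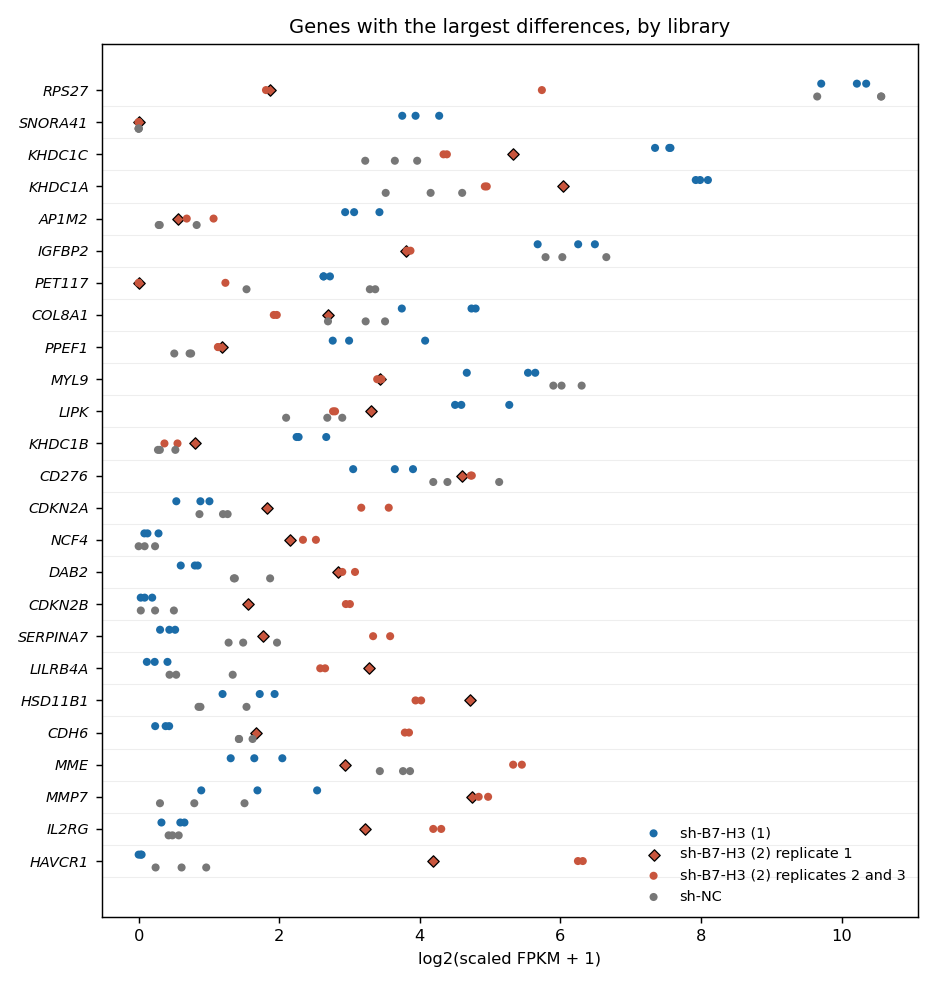
Expression, log2(scaled FPKM + 1), of CD276 and of the 12 genes with the largest differences in each direction, 1 point per library; the diamond is replicate 1 of sh-B7-H3 (2) and grey points are sh-NC. No overlap of the (1) and (2) points was required of all but CD276, whose points do not overlap either. Of all tested genes, 27.2% were without overlap. The sh-NC range overlaps that of (1) in some of the plotted genes, such as IGFBP2 and IL2RG, and that of (2) in others, such as CD276 and AP1M2. The diamond lies well between the other (2) points and (1) for HAVCR1, MME and CDH6, among others.

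These 24 genes differed in how far they rested on single libraries. The call was kept with each of the 6 libraries left out in turn by 13 of them, namely HAVCR1, IL2RG, MMP7, HSD11B1, LILRB4A, DAB2, NCF4, KHDC1A, KHDC1B, KHDC1C, AP1M2, IGFBP2 and SNORA41. CDH6, MME, SERPINA7, CDKN2A and CDKN2B lost it without any of the (1) libraries or without replicate 2 or 3 of (2), with adjusted p up to 0.174. COL8A1 lost it without replicate 2 or 3 of either pool. RPS27 and PET117 lost it without replicate 2 or 3 of (1) or replicate 3 of (2), PPEF1 without replicate 3 of (1) or replicate 2 or 3 of (2), MYL9 without replicate 3 of either pool and LIPK without replicate 3 of (2). Leaving out replicate 1 of (2) cost none of the 24 its call, by the rule that chose them.

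At the other end, 9 genes were called with all 6 libraries and not without replicate 1 of (2). The most negative 6 were DSP, ESRP1, HSPA1B, FBXO28, SLC7A1 and NUP93. DSP, the desmosomal plaque protein desmoplakin, was at 10.4, 13.4 and 10.9 in the (1) libraries and at 17.2, 17.7 and 16.1 in the (2) libraries, with a difference of -0.53 (SE 0.11, adjusted p = 0.0494) and -0.52 (adjusted p = 0.0501) without replicate 1 of (2). ESRP1, an epithelial splicing factor, was at 13.2, 11.2 and 10.3 in the (1) libraries, at 18.2, 15.997 and 16.9 in the (2) libraries and at 1.701, 1.91 and 1.08 in sh-NC, and both pools were above sh-NC. It differed by -0.53 (SE 0.11, adjusted p = 0.0496) and -0.48 (adjusted p = 0.05497) without replicate 1 of (2). The heat shock chaperone HSPA1B, the F-box protein FBXO28, the arginine transporter SLC7A1 and the nucleoporin NUP93 had differences of -0.50, -0.45, -0.44 and -0.40. Without that library their adjusted p lay between 0.0504 and 0.0563, and the differences were -0.46, -0.43, -0.42 and -0.37. The differences thus changed little, and the adjusted p crossed the threshold by a small step.

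Lists of interferon-induced and antigen presentation genes, which the immune setting of these tumors makes of interest, had no called member with all 6 libraries. The mRNA of CIITA, the master regulator of MHC class II genes, was at 6.88, 3.38 and 3.47 in the (1) libraries, at 6.26, 4.12 and 3.98 in the (2) libraries and at 0.127, 0.0672 and 0.0221 in sh-NC. The pools overlapped, and each library of either pool was above every sh-NC library. Lists were read for MHC class II (9 tested), MHC class I with peptide loading (21), interferon gamma induced GTPases (16), STAT, IRF and SOCS regulators (13), interferon gamma induced chemokines and checkpoint genes (10), type I interferon antiviral genes (22) and double-stranded RNA sensing with RNA interference (14). None of their members was called in limma with all 6 libraries, where 3.40% of all genes were. At an unadjusted p below 0.05 the lists held 0, 3, 2, 1, 1, 3 and 7 such genes, in the same order, beside 2471 of the 11239 tested genes. With the replicate block the counts in either direction were 1, 3, 2, 0, 2, 2 and 4, against 16.6% of all genes. Without replicate 1 of (2), 1 class II gene was called higher in (1) and 1 chemokine or checkpoint gene higher in (2), where 9.0% of all genes were called. The block without replicate 1 of (2) called 3, 3, 5, 1, 5, 6 and 1 members, in the same order, of which 2, 1, 4, 1, 5, 5 and 0 were higher in (2). The share of all genes was 18.3% there, and 9.18% were higher in (2). That fit compares only replicates 2 and 3 of each pool, since replicate 1 of (1) has a block to itself. Beyond these lists, interferon-induced genes were among the called ones, and IFITM1 and CH25H are named after their values were seen. The membrane protein IFITM1 was at 0.967, 1.27 and 0.793 in the (1) libraries, at 9.51, 6.19 and 5.09 in the (2) libraries and at 0.3901, 0.529 and 0.886 in sh-NC, a difference of -1.95 (SE 0.20, adjusted p = 0.00527) and -1.72 (adjusted p = 5.74e-04) without replicate 1 of (2). CH25H, which hydroxylates cholesterol, was at 0.0631, 0.271 and 0.0642 in the (1) libraries, at 2.29, 1.09 and 1.003 in the (2) libraries and at 0.04397, 0 and 0.0478 in sh-NC, a difference of -1.09 (SE 0.21, adjusted p = 0.0364) and -0.86 (adjusted p = 0.00902) without replicate 1 of (2). Both were higher in every (2) library and highest in replicate 1, with its leukocyte markers.

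A p that missed the threshold does not show that the pools were alike, and the intervals were wide for some members. In the class II list the differences ran from -0.32 to 0.094, with H2-AB1 (-0.32, 95% interval -1.12 to 0.48, adjusted p = 0.625). In the GTPase list they ran from -0.29 to 0.69 with a median of 0.19, the largest being GVIN1 (0.69, 95% interval 0.14 to 1.25, adjusted p = 0.156). Chemokines and checkpoint genes had a median of -0.37. The adhesion molecule ICAM1 had a difference of -1.004 (95% interval -1.65 to -0.36, adjusted p = 0.0947), and reached adjusted p = 0.0439 without replicate 1 of (2) and 0.0224 with the block. The chemokine CCL5 had a difference of -1.02 (95% interval -2.24 to 0.19, adjusted p = 0.2999), and moved to -0.32 without the library that held T cell markers. The class I gene H2-Q6 (-2.71, 95% interval -5.07 to -0.36, adjusted p = 0.181) had the widest interval of these and belongs to a family of near-identical genes. Of the 5 B7 family ligands tested, CD276 was the one called, and VTCN1 had a difference of -0.26 (95% interval -0.63 to 0.12, adjusted p = 0.391).

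Of the hypoxia-response genes, more were called higher in (1) than in (2). In this list 4 of 14 tested members were called higher in (1) and 1 higher in (2), with a median difference of 0.39, beside 1.76% and 1.64% of all genes. These counts became 4 and 2 of 14 without replicate 1 of (2) (median 0.28) and 7 and 2 with the block, where the shares of all genes were 3.68% and 5.32%, and 9.03% and 7.55%. HIF1A, the oxygen-regulated transcription factor, was at 162, 171 and 146 in the (1) libraries and at 118, 111 and 100.03 in the (2) libraries (difference 0.54 (SE 0.11, adjusted p = 0.0416) and 0.59 (adjusted p = 0.0253) without replicate 1 of (2)). EGLN3, a prolyl hydroxylase that acts on it, was at 45.9, 69.4 and 50.1 in the (1) libraries and at 15.6, 28.9 and 27.3 in the (2) libraries (difference 1.195 (SE 0.25, adjusted p = 0.0445) and 0.93 (adjusted p = 0.0194) without replicate 1 of (2)). BNIP3 of mitophagy and PDK1, which holds back pyruvate oxidation, differed by 0.85 (SE 0.18, adjusted p = 0.0482) and 0.66 (adjusted p = 0.0225) without replicate 1 of (2) and by 0.57 (SE 0.091, adjusted p = 0.0218) and 0.55 (adjusted p = 0.0213) without replicate 1 of (2). In the 4 genes every (1) library was above every (2) library. The collagen crosslinker LOX went against them, at 1.54, 1.49997 and 2.13 in the (1) libraries and at 4.02, 8.85 and 8.17 in the (2) libraries (difference -1.504 (SE 0.25, adjusted p = 0.0255) and -1.81 (adjusted p = 3.41e-04) without replicate 1 of (2)). Of all tested genes, 27.2% were without overlap in either direction. The 5 called genes each lost the call when any 1 of the (1) libraries, or replicate 2 or 3 of (2), was left out (limma adjusted p up to 0.198). Among those that did not pass, ANGPTL4 was also lower in (1) in the fit without replicate 1 of (2) (-1.57, adjusted p = 2.86e-04), and ADM had a difference of 0.93 (95% interval 0.33 to 1.54, adjusted p = 0.0965). For the glycolysis list 0 of 17 tested members were called higher in (1) and 0 higher in (2), with a median difference of 0.25, and with the block 6 members passed, all higher in (1). Its ENO1 had a difference of 0.79 (95% interval 0.35 to 1.24, adjusted p = 0.0669), and 0.0196 was the adjusted p in the block. The glucose transporter SLC2A1 had a difference of 0.52 (95% interval 0.090 to 0.95, adjusted p = 0.164).

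Of the detoxification enzymes under the transcription factor NRF2, those called with all 6 libraries were higher in (1). Of the list, 6 of 26 tested members were called higher in (1) and 0 higher in (2), with a median difference of 0.32, beside 1.76% and 1.64% of all genes. The counts in each direction were 7 and 2 of 27 without replicate 1 of (2) (median 0.19) and 12 and 0 with the block, beside 3.68% and 5.32%, and 9.03% and 7.55%, of all genes. GSTM1 and GSTM2, glutathione transferases of a chromosome 3 cluster, were at 59.95, 86.1 and 85.3 in the (1) libraries and at 25.9, 35.4 and 30.8 in the (2) libraries for GSTM1, and at 67.7, 89.1 and 72.9 in the (1) libraries and at 27.2, 36.1 and 33.2 in the (2) libraries for GSTM2. The differences were 1.29 (SE 0.17, adjusted p = 0.0121) and 1.18 (adjusted p = 0.00761) without replicate 1 of (2) for GSTM1 and 1.22 (SE 0.14, adjusted p = 0.00793) and 1.11 (adjusted p = 0.00355) without replicate 1 of (2) for GSTM2. Their neighbour GSTM3 was called the same way (0.71, adjusted p = 0.0302), and these paralogs may share reads. GSTA4, a transferase for lipid aldehydes, was at 128, 129.9 and 115 in the (1) libraries, at 70.5, 52.7 and 55.001 in the (2) libraries and at 125, 164 and 236 in sh-NC, so that (2) was the low arm (difference 1.06 (SE 0.13, adjusted p = 0.008397) and 1.19 (adjusted p = 9.71e-04) without replicate 1 of (2)). NQO1, the quinone reductase, was at 20.9, 14.6 and 16.4 in the (1) libraries, at 8.47, 8.13 and 8.99 in the (2) libraries and at 18.6, 26.9 and 45.4 in sh-NC (difference 0.93 (SE 0.13, adjusted p = 0.0167) and 0.92 (adjusted p = 0.01204) without replicate 1 of (2)). Also called were CBR3 (1.04, adjusted p = 0.0265, and 0.84, adjusted p = 0.00791, without replicate 1 of (2)) and SRXN1 (0.59, adjusted p = 0.0381, and 0.55, adjusted p = 0.0425, without replicate 1 of (2)). Not past the threshold were GSTA3 (0.75, 95% interval 0.35 to 1.14, adjusted p = 0.0598), CAT (0.70, 95% interval 0.34 to 1.05, adjusted p = 0.0548) and AKR1B8 (-0.63, 95% interval -1.14 to -0.12, adjusted p = 0.1598). Without replicate 1 of (2), AKR1B8 was called higher in (2) (-0.91, adjusted p = 0.00259).

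The NF-kB and inflammatory cytokine genes that were called were all higher in (2). Among them 0 of 23 tested members were called higher in (1) and 4 higher in (2), with a median difference of -0.40, beside 1.76% and 1.64% of all genes. They were 0 and 5 of 23 without replicate 1 of (2) (median -0.39) and 0 and 9 with the block, beside 5.32% and 7.55% of all genes for those higher in (2). CCL2, the monocyte chemoattractant, was at 18.2, 9.99 and 16.1 in the (1) libraries, at 41.2, 56.4 and 57.04 in the (2) libraries and at 22.4, 25.7 and 34.1 in sh-NC. All (1) libraries lay below all others, and replicate 1 of (2), which held macrophage markers, was the lowest of its pool. The difference was -1.76 (SE 0.22, adjusted p = 0.00942) and -1.91 (adjusted p = 0.00264) without replicate 1 of (2). TNFAIP3, the feedback inhibitor A20, was at 5.68, 3.595 and 4.33 in the (1) libraries, at 10.8, 12.6 and 12.7 in the (2) libraries and at 2.38, 3.16 and 1.71 in sh-NC, with both pools above sh-NC and (2) above (1) (difference -1.25 (SE 0.15, adjusted p = 0.00821) and -1.32 (adjusted p = 0.00317) without replicate 1 of (2)). The alarmin IL33 and the NF-kB subunit RELB had smaller differences, -0.61 (SE 0.13, adjusted p = 0.0495) and -0.63 (adjusted p = 0.0407) without replicate 1 of (2) and -0.52 (SE 0.11, adjusted p = 0.0441) and -0.50 (adjusted p = 0.0488) without replicate 1 of (2). CXCL2 had a difference of -1.69 (95% interval -2.55 to -0.82, adjusted p = 0.0555) and adjusted p = 0.00941 with the block, CCL7 had a difference of -0.98 (95% interval -2.22 to 0.26, adjusted p = 0.329) and CSF2 had a difference of -0.70 (95% interval -1.14 to -0.27, adjusted p = 0.08704). In the complement and acute phase list none passed with all 6 libraries in limma, 1 passed with the block, and 5 of 13 passed without replicate 1 of (2), all higher in (2). Of these ORM1 moved from -1.75 (adjusted p = 0.0929) to -2.38 (1.92e-04) and SERPING1 from -1.42 (0.0507) to -1.73 (0.00473).

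**Figure D4:**
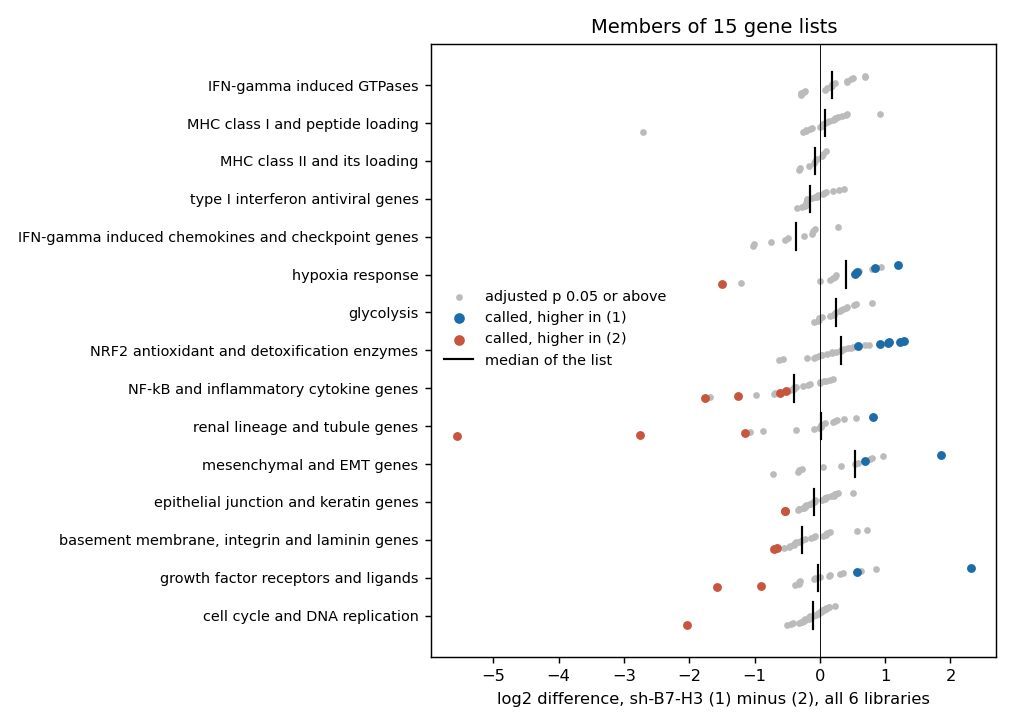
Log2 differences, sh-B7-H3 (1) minus (2), of the tested members of 15 gene lists with all 6 libraries, 1 point per gene, with called genes in colour and the list median as a bar. The interferon and MHC lists hold no coloured point, the 6 called NRF2 genes lie to the right and the 4 called NF-kB genes to the left of 0, and the hypoxia, renal and growth factor lists have called members on both sides.

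Genes of the matrix, of adhesion and of the epithelial and mesenchymal states were split. In the mesenchymal list 2 of 13 tested members were called higher in (1) and 0 higher in (2), with a median difference of 0.53. They were 4 and 1 of 15 without replicate 1 of (2) (median 0.20) and 5 and 0 with the block. Of all genes, 1.76% and 1.64% were called in these directions with all 6 libraries. The shares were 3.68% and 5.32% without replicate 1 of (2), and 9.03% and 7.55% with the block. The same shares apply to the epithelial list below. Beside MYL9, the actin-binding protein CALD1 was at 104, 132 and 122 in the (1) libraries, at 68.1, 81.7 and 69.5 in the (2) libraries and at 174, 213 and 189 in sh-NC, a difference of 0.70 (SE 0.12, adjusted p = 0.0307) and 0.65 (adjusted p = 0.0304) without replicate 1 of (2). The matrix glycoprotein SPARC had a difference of 0.77 (95% interval 0.33 to 1.21, adjusted p = 0.0709), with adjusted p = 0.0193 in the block. For epithelial junction and keratin genes 0 of 30 tested members were called higher in (1) and 2 higher in (2), with a median difference of -0.096, these being DSP and ESRP1, neither called without replicate 1 of (2). Their counts were 0 and 0 of 30 without replicate 1 of (2) (median -0.069) and 1 and 6 with the block. EPCAM (-0.33, 95% interval -0.69 to 0.020, adjusted p = 0.252) and KRT8 (-0.32, 95% interval -0.58 to -0.062, adjusted p = 0.157) did not pass.

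Of the basement membrane, integrin and laminin genes, a pair was called, both higher in (2). There 0 of 23 tested members were called higher in (1) and 2 higher in (2), with a median difference of -0.27, and they were 0 and 2 of 23 without replicate 1 of (2) (median -0.32) and 1 and 9 with the block. Of all genes, 1.76% and 1.64% were called in these directions with all 6 libraries. The shares were 3.68% and 5.32% without replicate 1 of (2), and 9.03% and 7.55% with the block. ITGB4, the hemidesmosome integrin, was at 24.1, 27.2 and 27.3 in the (1) libraries, at 42.97, 41.1 and 41.1 in the (2) libraries and at 21.4, 8.91 and 8.29 in sh-NC (difference -0.65 (SE 0.090, adjusted p = 0.0135) and -0.63 (adjusted p = 0.0119) without replicate 1 of (2)). The laminin chain LAMA4 was at 0.517, 0.454 and 0.545 in the (1) libraries and at 1.58, 1.38 and 1.38 in the (2) libraries (difference -0.70 (SE 0.11, adjusted p = 0.0203) and -0.66 (adjusted p = 0.0119) without replicate 1 of (2)), and LAMB1 had a difference of -0.55 (95% interval -1.01 to -0.089, adjusted p = 0.169) with adjusted p = 0.0193 in the block. The fibrillar collagens COL1A1, COL1A2 and COL3A1, listed as fibroblast markers, were higher in (2) as well. COL1A1 was at 4.79, 4.201 and 7.57 in the (1) libraries and at 30.3, 13.6 and 14.6 in the (2) libraries, with -1.596 (SE 0.31, adjusted p = 0.03802) and -1.24 (adjusted p = 0.0111) without replicate 1 of (2). COL1A2 and COL3A1 differed by -1.46 (SE 0.29, adjusted p = 0.0409) and -1.17 (adjusted p = 0.0236) without replicate 1 of (2) and by -1.31 (SE 0.20, adjusted p = 0.0192) and -1.15 (adjusted p = 0.0106) without replicate 1 of (2). The whole fibroblast list was 0 higher in (1) and 3 of 9 higher in (2), beside 1.76% and 1.64% of all genes. Its sum was also higher in all 3 (2) libraries than in the (1) libraries. The part of fibroblasts in these collagens was not tested. The markers LUM and DCN of the same list were at 3.08, 1.78 and 2.15 in the (1) libraries and at 6.82, 2.56 and 2.51 in the (2) libraries for LUM and 53.4, 29.1 and 37.4 in the (1) libraries and at 43.9, 53.9 and 51.5 in the (2) libraries for DCN.

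Growth factor and signalling genes differed singly. Among receptors and ligands 2 of 18 tested members were called higher in (1) and 2 higher in (2), with a median difference of -0.036, and they were 2 and 3 of 18 without replicate 1 of (2) (median -0.13) and 4 and 5 with the block. Of all genes, 3.40% were called with all 6 libraries, 9.0% without replicate 1 of (2) and 16.6% with the block, the shares beside which each list's counts can be read. KIT, the receptor of stem cell factor, was at 1.997, 2.46 and 1.31 in the (1) libraries, at 13.4, 5.52 and 5.77 in the (2) libraries and at 0.371, 0.362 and 0.121 in sh-NC, higher in every (2) library and highest where leukocyte markers were (difference -1.58 (SE 0.31, adjusted p = 0.0381) and -1.204 (adjusted p = 0.006504) without replicate 1 of (2)). FGF1 was higher in (1) (0.57 (SE 0.12, adjusted p = 0.0422) and 0.62 (adjusted p = 0.0281) without replicate 1 of (2)). Of the Wnt genes 2 of 15 tested members were called higher in (1) and 0 higher in (2), with a median difference of -0.20. The secreted modulators SFRP2 and DKK3 were these, at 12.3, 16.2 and 19.5 in the (1) libraries and at 4.83, 7.13 and 6.49 in the (2) libraries for SFRP2 and 10.99, 15.6 and 15.6 in the (1) libraries, at 3.31, 4.12 and 4.47 in the (2) libraries and at 15.8, 18.7 and 21.1 in sh-NC for DKK3. They differed by 1.24 (SE 0.18, adjusted p = 0.0183) and 1.100 (adjusted p = 0.0106) without replicate 1 of (2) and by 1.59 (SE 0.16, adjusted p = 0.004005) and 1.49 (adjusted p = 0.00206) without replicate 1 of (2). Of the TGF-beta, BMP and activin genes 0 of 24 tested members were called higher in (1) and 2 higher in (2), with a median difference of -0.12. GREM1, a BMP antagonist, was at 0.454, 0.217 and 0.325 in the (1) libraries, at 2.25, 2.87 and 2.11 in the (2) libraries and at 2.76, 1.75 and 1.45 in sh-NC, low in (1) alone (difference -1.35 (SE 0.13, adjusted p = 0.004005) and -1.38 (adjusted p = 0.00169) without replicate 1 of (2)). The latent TGF-beta binding protein LTBP2 differed by -0.73 (SE 0.12, adjusted p = 0.0245) and -0.63 (adjusted p = 0.0131) without replicate 1 of (2). Among Notch, Hippo and EGFR ligand and target genes, AREG, an EGFR ligand, was higher in (1) at 42.8, 42.8 and 40.7 in the (1) libraries, at 26.97, 26.1 and 25.1 in the (2) libraries and at 7.74, 9.35 and 8.06 in sh-NC (0.67 (SE 0.083, adjusted p = 0.00893) and 0.69 (adjusted p = 0.00628) without replicate 1 of (2)), and the Notch ligand JAG1 was higher in (2) (-0.74 (SE 0.15, adjusted p = 0.0449) and -0.83 (adjusted p = 0.0173) without replicate 1 of (2)). EGFR itself was EGFR (-0.58, 95% interval -0.86 to -0.29, adjusted p = 0.0509), and was called without replicate 1 of (2) (-0.68, adjusted p = 0.0134).

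Metabolic and stress genes gave few calls with all 6 libraries, where 3.40% of all tested genes were called. Lists of this size would hold few calls at that share, so no lack of calls is read from the counts. An unadjusted limma p below 0.05 was reached by 2471 of the 11239 tested genes. The shares called were 9.0% without replicate 1 of (2) and 16.6% with the block. With the block, some of these lists lay above that share and others below it. For the TSC and mTOR complex list 0 of 17 tested members were called higher in (1) and 0 higher in (2), with a median difference of -0.17 (3 at an unadjusted p below 0.05, 2 called with the block). The mTOR inhibitor DEPTOR had a difference of -0.40 (95% interval -0.72 to -0.072, adjusted p = 0.161) and reached adjusted p = 0.0464 without replicate 1 of (2). Among lysosome genes 0 of 23 tested members were called higher in (1) and 0 higher in (2), with a median difference of 0.056 (5 at an unadjusted p below 0.05, 5 called with the block), with ATP6V0D2 (-1.31, 95% interval -1.96 to -0.65, adjusted p = 0.0516) and -1.66 (adjusted p = 5.50e-04) without that library. Cholesterol synthesis had HSD17B7 as its one called member of 23, at 8.497, 6.55 and 6.76 in the (1) libraries and at 16.7, 12.2 and 12.6 in the (2) libraries (-0.84 (SE 0.15, adjusted p = 0.0282) and -0.70 (adjusted p = 0.0167) without replicate 1 of (2)). In fatty acid metabolism 0 of 17 tested members were called higher in (1) and 0 higher in (2), with a median difference of -0.23, 5 of them at an unadjusted p below 0.05. The counts there were 0 and 2 of 17 without replicate 1 of (2) (median -0.18) and 0 and 5 with the block. In it FASN (-0.74, 95% interval -1.19 to -0.29, adjusted p = 0.0835) and PPARG (-0.67, 95% interval -1.09 to -0.25, adjusted p = 0.0877) were both called lower in (1) without replicate 1 of (2) (adjusted p = 0.0274 and 0.0173). DDIT3, the stress factor CHOP, was the one called unfolded protein and ATF4 gene of 21, at 117, 104 and 99.9 in the (1) libraries and at 69.4, 65.7 and 67.6 in the (2) libraries (0.65 (SE 0.097, adjusted p = 0.0182) and 0.67 (adjusted p = 0.0122) without replicate 1 of (2)). The chaperone HSPA1A was higher in (2) beside HSPA1B (-0.65 (SE 0.090, adjusted p = 0.0135) and -0.63 (adjusted p = 0.0119) without replicate 1 of (2)). Oxidative phosphorylation (20 tested), p53 targets (16) and imprinted genes (9) had 0 called in limma with all 6 libraries, 2, 2 and 3 at an unadjusted p below 0.05, and 2, 1 and 3 with the block.

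The sh-NC libraries are set beside the called genes, as a description. A call higher in (2) already places (2) above (1), and the reverse holds for (1). The same counts over all tested genes were not made, so no share can be set beside the counts below. For the 184 genes higher in (2), the sh-NC mean was nearer to (1) in 143, and (2) was above both other arms in 168. For the 198 genes higher in (1), the sh-NC mean was nearer to (1) in 136. There (1) was above both other arms in 100, and sh-NC was above both pools in 98. MAOB, which degrades amines, was of the latter kind, at 12.9, 17.7 and 14.97 in the (1) libraries, at 4.41, 6.11 and 5.63 in the (2) libraries and at 32.8, 34.2 and 36.4 in sh-NC, and BEX1, a small adaptor of neuronal cells, of the former, at 35.4, 37.9 and 32.7 in the (1) libraries, at 12.1, 8.64 and 8.69 in the (2) libraries and at 2.41, 5.09 and 3.11 in sh-NC. Replicate 1 of (2) lay on the (1) side of its pool mates in 101 of the 184 and 86 of the 198 genes, and beyond them on the far side in 61 and 75.

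Called genes were spread over the chromosomes. Of 11056 tested genes with a RefSeq position on chromosomes 1 to 19 or X, the share called ran from 1.43% on chromosome 9 to 6.24% on chromosome 15, beside 3.40% of all genes. Direction was less even. On chromosome 2, 34 called genes were higher in (1) and 11 in (2), on chromosome 10 it was 1 and 12, on chromosome 14 it was 4 and 14 and on chromosome 18 it was 12 and 4. The median difference over all tested genes was 0.16 on chromosome 18 (295 genes), 0.089 on chromosome 2, -0.091 on chromosome 10 and -0.14 on chromosome 14. Per library and against the sh-NC mean, the chromosome 18 median was 0.19, 0.21 and 0.14 in (1) and 0.082, -0.0073 and 3.30e-04 in (2). On chromosome 14 it was -0.097, -0.16 and -0.13 in (1) and 0.0077, 0.055 and 0.041 in (2). The pools did not overlap there, while on chromosome 10 they did, at -0.055, -0.063 and -0.073 in (1) and -0.073, 0.087 and 0.078 in (2), where replicate 1 of (2) lay with (1). The 20 chromosomes included 5 on which the 3 and 3 medians did not overlap, and the same was true of 27.2% of all tested genes. Genes of one chromosome share their libraries, and copy number was not measured here.

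**Figure D5:**
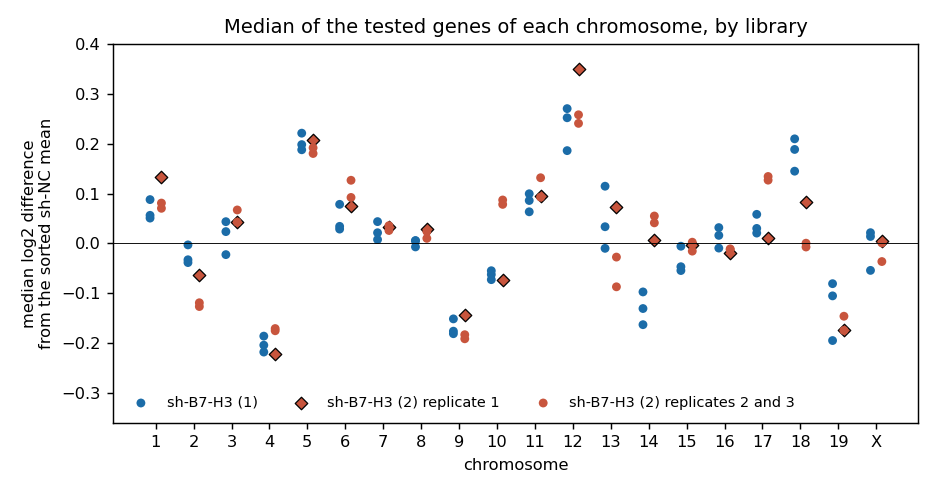
Median log2 difference from the sorted sh-NC mean over the tested genes of each chromosome, 1 point per library; the diamond is replicate 1 of sh-B7-H3 (2). On chromosomes 2 and 18 the (1) libraries lie above the (2) libraries, on chromosome 14 below them, and on chromosomes 10 and 17 replicate 1 of (2) lies apart from the other (2) libraries.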

How the data were processed

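RNA from 15 mouse libraries in 5 groups of 3 was sequenced, and the 6 sorted libraries of the sh-B7-H3 (1) and (2) pools were compared. Per the study's methods, poly(A) RNA was read by 75 single-end cycles and processed with the VIPER pipeline. The submitters' processing notes name the build mm10, and the aligner and counter are not given in the sources used here. The table deposited by the authors holds FPKM per gene symbol, although its name says counts, so no count test was run and absolute depth is unknown. Of its 24917 entries, 26 with date-like names were dropped. Values were divided by median-ratio factors from 9872 genes with FPKM of at least 1 in all 15 libraries (1.09 to 1.18 in the 6 libraries).

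Genes with at least 1 scaled FPKM in 3 of 6 libraries (2 where a library was left out) were fitted by limma 3.58.1 with a mean-variance trend in R 4.3.3 on log2(scaled FPKM + 1), with Benjamini-Hochberg adjustment and a threshold of 0.05. P-values are two-sided. They measure the spread between these libraries, which the labels do not tie to separate animals. The script was tested on simulated data. Figures and summaries used Python 3.11.15. Symbols were matched to RefSeq positions on GRCm38 for 11057 of the tested genes, and coding sequences came from the GENCODE annotation of the same build.

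Same-numbered (1) and (2) libraries deviated together from their group means (correlations of 0.32, 0.33 and 0.36 across genes, against -0.23 to -0.088 for different numbers), so the numbers were taken to pair them. Deviations from a group mean cancel out, so positive values for the same number make the others negative on balance, and these add no separate evidence. This pairing comes from the data, not the labels. Blocked counts are given where they moved by over 1.5 times. The named genes were CD276, the 12 largest differences in each direction among genes called with and without replicate 1 of (2) averaging 2 scaled FPKM or more and not overlapping between the groups, the 6 most negative of those called with it only, and up to 4 called and 3 other members of each list. The groups, lists and rules were chosen with earlier results of these data known. Alternatives covered scaling, pseudocount (0.1), filter, fitted libraries, a leukocyte covariate and each library left out.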

Additional observations from a re-analysis of the deposited data

How the results depend on the processing

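Counts of called genes depended on the fit more than on the scaling. With all 6 libraries the count was 382, and 137 with no filter on low values, 240 with all 9 sorted libraries in 1 fit, 1111 with a leukocyte score as covariate, 1864 with the replicate block and 119 with an absolute log2 difference above 1 asked as well. With each library left out it lay between 45 and 1029. Without replicate 1 of (2) the count was 1029, and 475 with all 8 other sorted libraries in 1 fit, 227 with the leukocyte covariate, 2094 with the replicate block and 246 with a log2 difference above 1. With a further library left out it lay between 141 and 1381, the 2 lowest being those without replicate 2 (155) or 3 (141) of (2), which leave a lone (2) library assumed to vary like the (1) libraries. FPKM as deposited, factors from the 6 libraries alone, quantile normalization, a pseudocount of 0.1 and a filter on every library gave 356 to 387 genes with all 6 libraries, and 930 to 1107 without replicate 1 of (2), where no filter gave 831. The CD276 difference of -1.16 cannot change with the gene filter or with the sh-NC libraries added to the fit. Its adjusted p was 0.0885 with no filter and 0.0561 with all 9 sorted libraries, neither past the threshold. The difference ran from -1.34 to -0.92 with a library left out. The block changed neither the call of CD276 nor that of any of the 79 other named genes called with all 6 libraries. None of these 79 reversed, though the block, the gene filters and the added sh-NC libraries could not change a direction. Of the 79, 19 were called under every alternative that tested them. Calls were lost by 59 without replicate 3 of (1), 56 without replicate 3 of (2), 50 and 46 without replicate 2 of (1) and (2), 31 without replicate 1 of (1) and 6 without replicate 1 of (2), by 48 with no filter and by 23 with all 9 sorted libraries. Beyond the number of libraries or genes fitted, the cause was not tested. Depth is relative only, so no counting interval can be given. Replicates 2 and 3 of (2) were the closest pair, with a median absolute log2 difference of 0.088 over 10293 genes above 2 scaled FPKM against 0.13 to 0.19 in the other pairs. It was 0.095 at 2 to 8 and 0.083 above 100 scaled FPKM, so it changed little with level.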

Other observations

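Leaving out replicate 1 of (2) brought 656 genes past the threshold that were not called with all 6 libraries, and the genes below are among the largest differences of those averaging 2 scaled FPKM or more, a rule made after the values were seen. Several were high in replicates 2 and 3 of (2) and low in replicate 1. GC, the vitamin D-binding protein, was at 32.9, 64.3 and 70.2 in the (1) libraries, at 28.3, 511 and 516 in the (2) libraries and at 28.9, 49.7 and 44.8 in sh-NC, a difference of -3.25 (SE 0.29, adjusted p = 9.18e-04) without that replicate. PRL2C2, a prolactin family gene, was at 2.21, 0.0646 and 0.483 in the (1) libraries, at 2.55, 68.1 and 65.01 in the (2) libraries and at 4.74, 2.91 and 11.03 in sh-NC, with -5.297 (SE 0.40, adjusted p = 3.69e-04). PRL2C2 and PRL2C3 are close copies, so their split is uncertain. IL1RL1, the receptor of IL33, was at 0.172, 0.162 and 0.0967 in the (1) libraries and at 0.998, 9.86 and 10.2 in the (2) libraries, with -3.27 (SE 0.11, adjusted p = 9.25e-06). The vasopressin receptor AVPR1A was at 0.117, 0 and 0.0497 in the (1) libraries and at 0.229, 10.3 and 9.92 in the (2) libraries, with -3.399 (SE 0.11, adjusted p = 9.25e-06). ALDH1A2, which makes retinoic acid, and ENPP2, the secreted enzyme autotaxin, were at 0.158, 0.398 and 0.155 in the (1) libraries and at 1.06, 6.75 and 6.65 in the (2) libraries for ALDH1A2 and 0.787, 1.07 and 0.997 in the (1) libraries and at 2.05, 10.4 and 9.79 in the (2) libraries for ENPP2. All these genes come from those called only without replicate 1, a choice that favours genes where that library departs from its pool mates. Replicate 1 was nearer to the (1) libraries than to replicates 2 and 3 in these genes. Since leukocyte, endothelial and fibroblast genes were high in it, the part of host cells in these values was not tested.

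In the other direction, APOE, a lipid carrier of macrophages, was at 35.03, 51.96 and 33.5 in the (1) libraries and at 421, 13.7 and 11.9 in the (2) libraries, and was called higher in (1) without replicate 1 of (2), 1.55 (SE 0.19, adjusted p = 0.00346), while the fit with all 6 libraries gave -0.093 (adjusted p = 0.971). S100A14, a calcium-binding protein of epithelia, was at 81.6, 55.8 and 59.9 in the (1) libraries, at 45.4, 24.2 and 27.02 in the (2) libraries and at 3.74, 9.44 and 7.35 in sh-NC, with 1.31 (SE 0.17, adjusted p = 0.00425), and both pools were above sh-NC. ANKRD22 was ordered in the same way, at 18.8, 10.4 and 11.5 in the (1) libraries, at 8.42, 3.48 and 3.97 in the (2) libraries and at 1.27, 1.99 and 1.82 in sh-NC. ITM2A was at 18.9, 12.4 and 13.5 in the (1) libraries, at 13.7, 4.71 and 5.76 in the (2) libraries and at 0.583, 1.73 and 2.52 in sh-NC. Its pools were also above sh-NC, but replicate 1 of (2) was above replicates 2 and 3 of (1).

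Some called genes start within 100 kb of the start of another called gene, 46 genes in 21 runs. Runs with a shared direction included MAOA with MAOB (0.59 and 1.34), BEX1 with BEX3 (1.76 and 0.76) and RTL8A with RTL8B (-0.81 and -0.99). IGFBP2 with IGFBP5 and GREM1 with SCG5 (-1.35 and 0.56) had opposite directions. The distance was chosen after the values were seen.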
